A study of Homo sapiens with 8 samples.

Results

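DNA replication and S phase genes were followed in 2 thyroid cell lines transfected with a mimic or an inhibitor of miR-375. The 45 genes encode the proteins that license and fire replication origins, the replicative polymerases with their clamp and clamp loader, enzymes of Okazaki fragment maturation and of nucleotide supply, the G1/S regulators CCNE1, CCNE2 and E2F1, and factors of chromatin and histone supply. They were chosen by gene name, and every probe that is not a control and carries one of these names was taken. All 45 genes were on the array, with 57 probes, out of 36337 gene names and 50599 probes. A gene was represented by its probe with the highest mean over the 8 arrays, and the probe of each of the 45 genes was well above background on all 8 arrays.

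Replication starts when the origin recognition complex, CDC6 and CDT1 load the MCM2 to MCM7 helicase onto DNA in G1, a step called licensing that geminin (GMNN) blocks by binding CDT1 once S phase has begun. The kinase CDC7 with its partner DBF4 and the cyclin E kinase then turn the loaded helicase into the active CMG helicase, which holds the MCM ring, CDC45 and the GINS complex. Polymerase alpha with primase lays down primers, the RFC loader places the PCNA clamp, and polymerases delta and epsilon extend the strands. Many of these genes are transcribed at the G1/S border under E2F factors, which makes their RNA a common readout of cycling cells. Opposite phases of the cycle are marked by CDT1 and GMNN in the FUCCI reporter, and the study used a FUCCI reporter line of the same thyroid cells. In bulk RNA, fewer cells in S phase and less of the RNA per cell cannot be told apart.

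The groups were 4, with 2 arrays each. Nthy-ori 3-1 cells, an established line of immortalized follicular thyroid cells, received either pre-miR-375, which mimics the miRNA (ORI_premiR-375), or a control reagent (ORI_CTL). TT cells, an established line from a medullary thyroid carcinoma, were transfected with antagomiR-375, an antisense inhibitor (TT_AntagomiR-375), or served as controls (TT_CTL). Cells were harvested at 48 h, the labels give a concentration of 5 nM in Nthy-ori 3-1 and of 20 nM in TT cells, and the methods give higher ones. For the controls, called CTL in the labels, the methods name the transfection reagents pre-miR-CTL and antagomiR-CTL. Their section on these arrays names pre-miR-CTL but not antagomiR-CTL, so the reagent of the TT controls is not settled. The lines were grown in different media, RPMI for Nthy-ori 3-1 and DMEM/F12 for TT cells. The methods call the replicates biological. A slide carried the control and the treated array of 1 replicate, so each treated array had a control on its own slide, and each slide held 1 line.

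Between 32071 and 37340 of the 58717 spots that were not controls were well above background on each array, and none was saturated. Values below are log2 of the background-subtracted signal of a probe after quantile normalization over the 8 arrays, and each treated array is compared with the control on its slide. The number of arrays, 2 per group, limits the precision: for a single gene the smallest p of an exact permutation test, two-sided, is 0.5 for the 2 slide pairs of a treatment and 0.333 for the 2 control groups. Taken without the slides, 2 against 2 arrays that do not overlap have this probability of 0.333 where nothing differs. Remarks below that both arrays of a group lie above or below the others are therefore descriptions only. TT arrays carried the markers of their label: all 4 had all 5 medullary markers (CALCA, CHGA, RET, CEACAM5 and SYP) well above background. The follicular factors PAX8 and FOXE1 were well above background on the Nthy-ori 3-1 arrays, whereas TSHR was not on any array and NKX2-1 was not on any Nthy-ori 3-1 array. On the pre-miR-375 arrays 4 of the 5 medullary markers were above background, against 1 of 5 on their controls, and the summed signal of the 5 was 431 and 180 against 117 and 81.2, where TT arrays had 488000 to 544000. CEACAM5 was not above background on any Nthy-ori 3-1 array. The sum hides SYP, at 1.91 and 2.11 in the Nthy-ori 3-1 controls, below the background cut there, and 5.49 and 6.15 with pre-miR-375. Its adjusted p in limma was 0.0390, and TT controls had 9.51 and 9.72. CALCA and CHGA were also higher in both pairs, and RET was lower in both. The array holds no probe of MIR375 itself. Of its targets in the study, SEC23A had a log2 signal of 11.04 and 11.35 in the Nthy-ori 3-1 controls against 9.53 and 10.08 with pre-miR-375, and of 9.55 and 9.68 in the TT controls against 10.24 and 10.29 with antagomiR-375, and it passed the test in Nthy-ori 3-1 cells (adjusted p 0.0444) but not in TT cells (adjusted p 0.285).

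The miRNA at which both transfections were directed, mature hsa-miR-375-3p, is encoded at chr2:219001648-219001669 on the minus strand (RefSeq, GRCh38.p14). Its sequence is given with the seed, bases 2 to 8, in capitals.
hsa-miR-375-3p: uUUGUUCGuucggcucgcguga

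Promoter windows from RefSeq (GRCh38.p14), 250 bases before to 50 bases after an annotated start site, were at hand for 40 of the 45 genes, as 53 windows. GINS4, MCM4, MCM5, CCNE2 and POLD3 had no entry. The windows were searched on both strands for 4 forms of the E2F site, TTTCCCGC, TTTCGCGC, TTTGGCGC and TTTGCCGC, which can overlap each other on opposite strands. At least 1 of the 4 was found in 22 of the 53 windows (41.5%), belonging to 21 genes, and in 1164 of all 35116 windows (3.31%). By form, TTTCCCGC was in 20.8% of the windows of these genes and 1.63% of all windows, TTTGGCGC in 15.1% and 0.652%, TTTCGCGC in 11.3% and 0.515%, and TTTGCCGC in 1.89% and 0.607%. The CCAAT box, CCAAT, was in 52.8% and 34.6%, and the CHR element of G2/M promoters, TTTGAA, in 3.77% and 15.2%. These are matches of letters, not measured binding. The stretches from 100 bases before to 25 bases after the start site are shown for the 3 genes that fell with pre-miR-375 (TYMS, UHRF1 and CDC6) and for 2 of the genes that differed most between the control cells (GINS3 and CHAF1B), all on the plus strand, with the E2F matches in capitals. They lie at chr18:657553-657677 (TYMS), chr19:4909401-4909525 (UHRF1, the first of its 3 windows), chr17:40287779-40287903 (CDC6), chr16:58392371-58392495 (GINS3) and chr21:36385292-36385416 (CHAF1B).
TYMS: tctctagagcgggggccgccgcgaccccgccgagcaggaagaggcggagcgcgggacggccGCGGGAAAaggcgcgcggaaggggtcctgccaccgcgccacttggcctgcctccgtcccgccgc
UHRF1: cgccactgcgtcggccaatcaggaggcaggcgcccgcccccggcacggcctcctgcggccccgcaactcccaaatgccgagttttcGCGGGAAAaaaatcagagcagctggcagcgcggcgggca
CDC6: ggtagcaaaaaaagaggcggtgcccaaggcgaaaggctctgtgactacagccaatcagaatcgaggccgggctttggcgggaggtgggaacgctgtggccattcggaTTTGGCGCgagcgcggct
GINS3: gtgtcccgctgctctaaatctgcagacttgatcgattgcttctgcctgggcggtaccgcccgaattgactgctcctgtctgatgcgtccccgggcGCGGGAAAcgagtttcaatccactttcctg
CHAF1B: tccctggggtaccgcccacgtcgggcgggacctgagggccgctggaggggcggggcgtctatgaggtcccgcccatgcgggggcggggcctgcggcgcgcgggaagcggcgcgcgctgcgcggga
Counted from the start site to the first base shown in capitals, the match was at -39 in TYMS, -14 in UHRF1, 8 in CDC6 and -5 in GINS3. CHAF1B had none of the 4 forms in its window.

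With pre-miR-375, 3 of the 45 genes fell in Nthy-ori 3-1 cells and 0 rose. A gene was called at a Benjamini-Hochberg adjusted p of at most 0.05 in limma's moderated test, taken over all probes well above background in at least 1 group of the comparison. The 3 genes were TYMS, thymidylate synthase, which makes dTMP, UHRF1, which guides maintenance DNA methylation to replicated DNA, and CDC6, the licensing factor. Of all 19758 genes tested, 2.47% were called lower and 1.45% higher at this threshold. At an unadjusted p under 0.05, 10 of the 45 were lower and 1 higher, against 14.1% and 15.6% of all genes. The median log2 fold change of the 45 was -0.11, and that of all genes tested was 0.041. Both pairs had a lower signal with pre-miR-375 for 24 genes and a higher one for 13. In the fit 28 of the 45 had a negative and 17 a positive value, against 8972 and 10786 of all 19758 genes. Agreement between the pairs was not counted over all genes.

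TYMS was at a log2 signal of 14.36 and 14.67 in the controls and of 12.88 and 13.26 with pre-miR-375. It fell 2.71-fold (log2 fold change -1.44, standard error 0.12, adjusted p 0.0425), and both treated arrays were below both controls by more than 1 log2 unit. Its probe lies at chr18:673276-673335 (hg19, per the array file). UHRF1 was at 12.22 and 12.29 on the control arrays and 10.94 and 10.86 with pre-miR-375, with no overlap (log2 fold change -1.35, standard error 0.12, adjusted p 0.0435). Its other probe fell too, with a log2 fold change of -1.30 and an adjusted p of 0.0435, and the 2 probes lie at chr19:4962065-4962124 and chr19:4960895-4960954 (hg19). CDC6 had 7.21 and 7.26 on the control arrays and 6.04 and 6.29 with pre-miR-375, again with no overlap (log2 fold change -1.07, standard error 0.13, adjusted p 0.0497). CDC6 was at the edge of the threshold, and its log2 fold change was -0.67 with normexp background correction and -0.68 with the deposited values. The calls of all 3 genes rest on the slide pairs and on the filter on dim probes, since none passed without the block (adjusted p 0.26 to 0.33), without the filter (adjusted p 0.32), with normalization within each line (adjusted p 0.051 to 0.056) or with either pair left out.

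**Figure D1:**
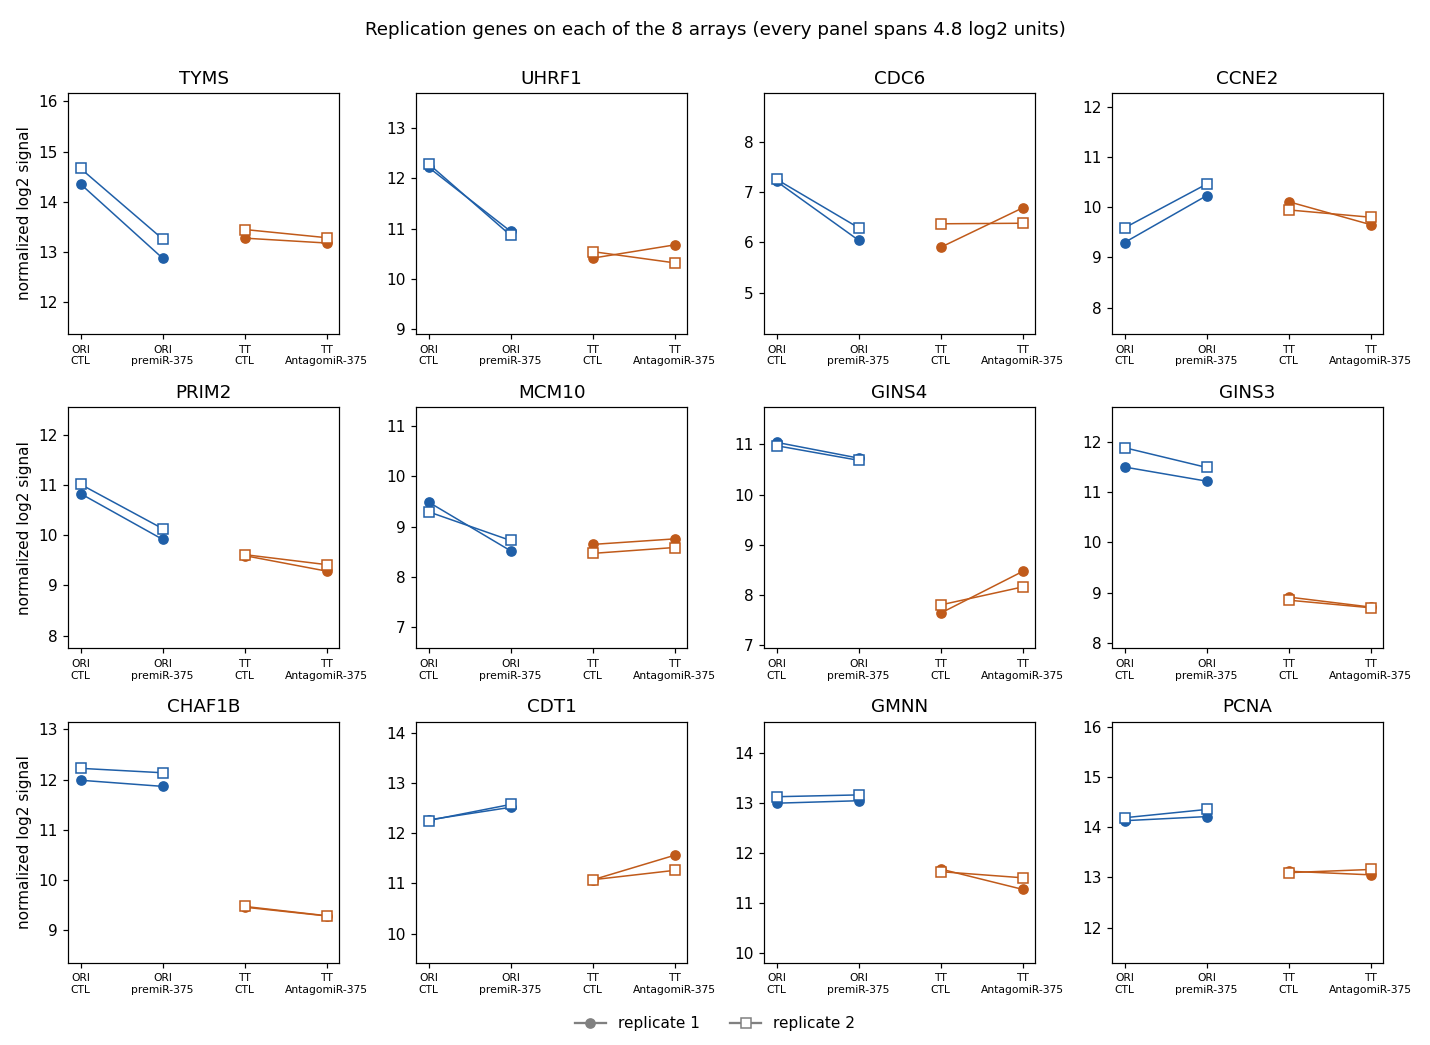
Normalized log2 signal of 12 replication genes on each array, with a line joining the treated and control array of a slide (filled circle, replicate 1; open square, replicate 2; blue, Nthy-ori 3-1; orange, TT). TYMS, UHRF1, CDC6, PRIM2 and MCM10 lie lower with pre-miR-375 and CCNE2 higher, while GINS4, GINS3 and CHAF1B differ mainly between the lines.

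Among the genes of origin licensing, 1 of 9 fell, CDC6. None of the 6 MCM helicase subunits passed, and the MCM2 to MCM7 log2 fold changes ran from -0.39 (MCM3) to 0.13 (MCM5). For MCM3 the 95% interval, which is not adjusted over genes, was -0.72 to -0.052 (adjusted p 0.136), for MCM5 -0.28 to 0.54 and for MCM7 -0.39 to 0.30, and the signs of MCM5 and MCM7 turned with the processing. CDT1, the partner of CDC6 in loading, had 12.26 and 12.25 on the control arrays and 12.51 and 12.57 with pre-miR-375 (log2 fold change 0.29, standard error 0.12, adjusted p 0.212). Its inhibitor GMNN was at 12.99 and 13.12 in the controls against 13.04 and 13.16 in treated cells (log2 fold change 0.042, standard error 0.11, adjusted p 0.830, 95% interval -0.29 to 0.38). The sign of the GMNN value turned with another scaling. Thus the control and treated arrays overlapped for GMNN, while both treated arrays were above both controls for CDT1 without passing the test.

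Origin firing genes and the CMG partners had no call among 8. The largest value was that of MCM10, which joins the helicase at firing, at 9.49 and 9.29 in the controls and 8.52 and 8.72 with pre-miR-375 (log2 fold change -0.77, standard error 0.16, adjusted p 0.0829). Both its treated arrays were below both controls, but the pairs were unequal (-0.97 and -0.57). The 4 GINS subunits, which form 1 complex, ran from -0.34 (GINS3) to 0.15 (GINS1), and CDC45, CDC7 and DBF4 from -0.11 to 0.20. The probes of DBF4 disagreed, with -0.11 for the one used and 0.47 for the other (adjusted p 0.122 in limma).

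No gene of the clamp and its loader passed. PCNA, the sliding clamp, was at 14.13 and 14.19 on the control arrays and 14.21 and 14.35 with pre-miR-375 (log2 fold change 0.12, standard error 0.12, adjusted p 0.526, 95% interval -0.22 to 0.46), and each treated array was slightly above both controls. RFC1 to RFC5, the loader subunits, ran from -0.50 (RFC5) to 0.13 (RFC2). Among polymerases and primase 0 of 9 passed. The primase subunits had the lowest values: PRIM2 was at 10.83 and 11.01 on the control arrays and 9.92 and 10.13 with pre-miR-375 (log2 fold change -0.90, standard error 0.11, adjusted p 0.0520), and PRIM1, the catalytic subunit, had a log2 fold change of -0.70 (adjusted p 0.0648). The probes of PRIM2 disagreed, since its other 2 had log2 fold changes of -1.16 and 0.21, the latter for a probe farther from the others (chr6:57190782-57190841, hg19). The polymerase subunits ran from -0.34 (POLD2) to 0.22 (POLD3).

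CCNE2, a cyclin that drives entry into S phase, had the highest value of the 45 genes, with 9.30 and 9.59 on the control arrays and 10.23 and 10.46 with pre-miR-375. Both treated arrays were above both controls, and the adjusted p just missed the threshold (log2 fold change 0.90, standard error 0.12, adjusted p 0.0521), as for its other probe (log2 fold change 0.80, adjusted p 0.0619). CCNE2 passed under 4 and PRIM2 under 5 of the 10 alternative settings. CCNE1, the paralog of CCNE2, was at 11.47 and 11.54 in the controls against 11.35 and 11.30 in treated cells (log2 fold change -0.18, standard error 0.12, adjusted p 0.391). The transcription factor E2F1 was at 11.54 and 11.55 in the controls against 11.28 and 11.37 in treated cells (log2 fold change -0.22, standard error 0.12, adjusted p 0.298). For CCNE1 and E2F1 both treated arrays were below both controls without passing the test. Beyond TYMS, the genes of nucleotide supply were between -0.17 (TK1, thymidine kinase) and 0.26 (RRM2, the small subunit of ribonucleotide reductase). FEN1 and LIG1, which trim and seal Okazaki fragments, were at -0.052 and 0.26. Of the chromatin and histone genes, UHRF1 fell, SLBP, which binds histone mRNA, was at -0.43 (adjusted p 0.116), and the CAF-1 subunits CHAF1A and CHAF1B were at 0.078 and -0.11.

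**Figure D2:**
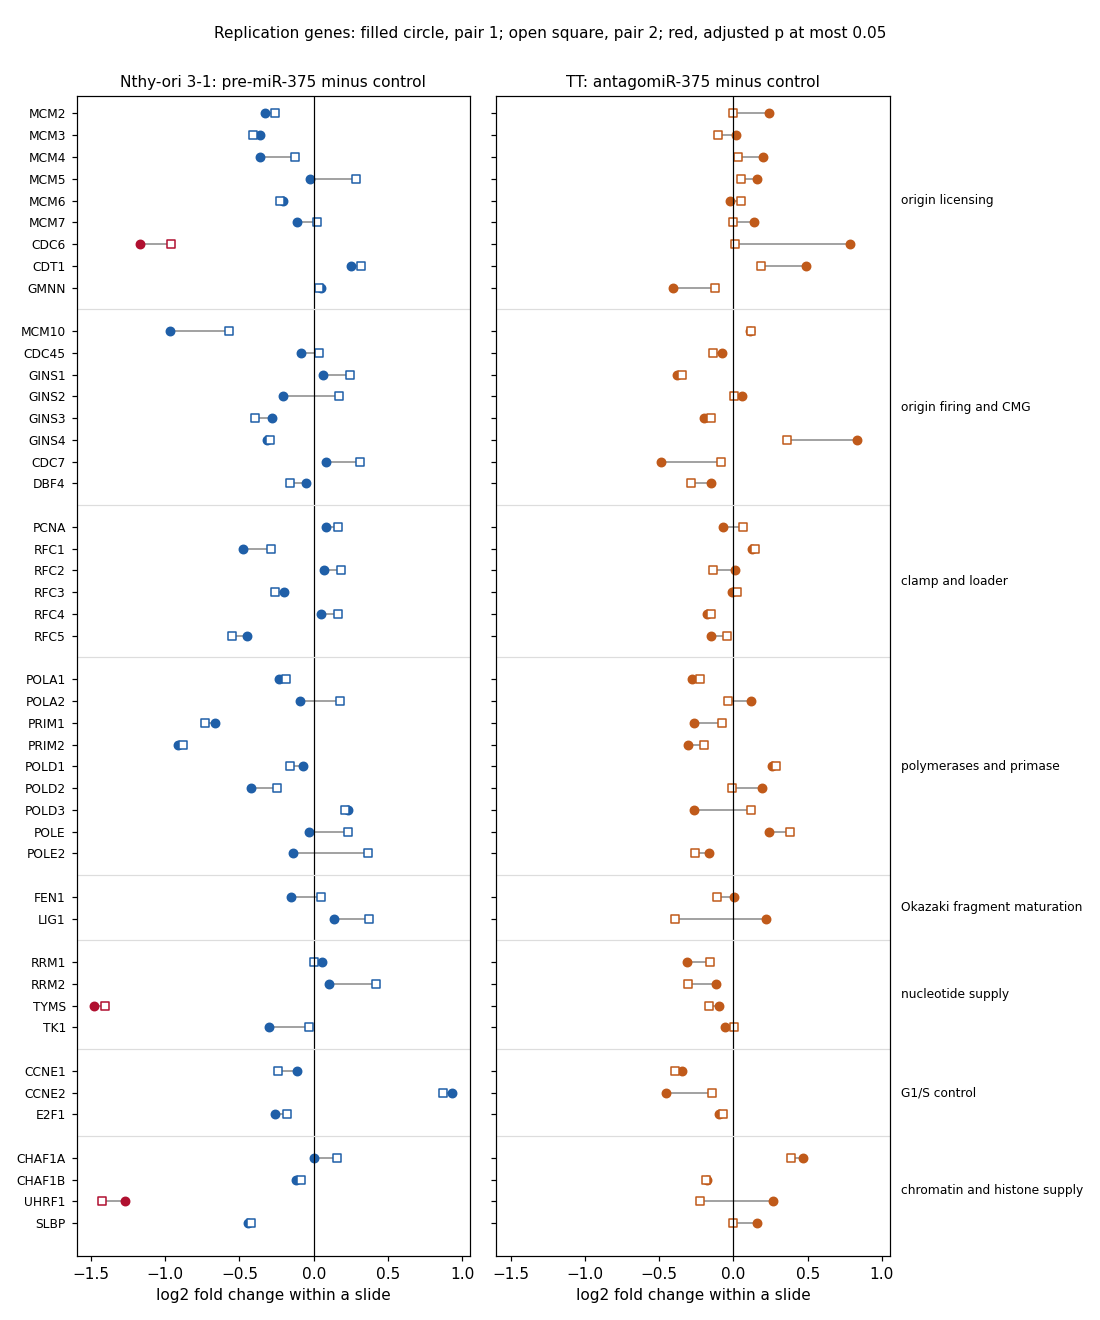
Log2 fold change of each of the 45 genes within each slide, by role, in Nthy-ori 3-1 (left, pre-miR-375 minus control) and TT cells (right, antagomiR-375 minus control); circles are pair 1, squares pair 2, and red marks an adjusted p of at most 0.05. Red points stand for TYMS, UHRF1 and CDC6 in the left panel, and the right panel has none.

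In TT cells none of the 45 genes passed the test after antagomiR-375, as was so for all 21859 genes tested (0% called, smallest adjusted p 0.285, 4429 of 29151 probes at an unadjusted p under 0.05). At an unadjusted p under 0.05, 2 of the 45 were lower (CCNE1 and GINS1) and 2 higher (CHAF1A and GINS4), against 7.4% and 7.5% of all genes. The median log2 fold change was -0.056 for the 45 and -0.010 for all genes. Signal was lower in both pairs for 19 genes and higher in both for 11, which was not counted over all genes. In the fit 26 of the 45 were negative and 19 positive, against 11274 and 10585 of all genes. Both TT control arrays had an RNA integrity number of 8 and both treated arrays one of 9, so RNA quality and treatment cannot be told apart in this line.

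GINS4, a subunit of the CMG helicase, had the largest value in TT cells, with 7.64 and 7.81 on the control arrays and 8.47 and 8.16 with antagomiR-375 (log2 fold change 0.59, standard error 0.17, adjusted p 0.313). Its treated arrays were both above the controls, but the pairs were unequal at 0.83 and 0.36. CHAF1A, the large subunit of the CAF-1 histone chaperone, was at 11.14 and 11.26 in the controls against 11.61 and 11.65 in treated cells (log2 fold change 0.42, standard error 0.11, adjusted p 0.303), with no overlap and nearly equal pairs. CDC6 had 5.90 and 6.37 on the control and 6.69 and 6.38 on the treated arrays (log2 fold change 0.40, standard error 0.24, adjusted p 0.493). The 95% interval of CDC6, -0.36 to 1.16, was the widest of the 45, and its signal was higher in 1 pair by 0.79 and in the other by 0.011. CDT1 was at 11.07 and 11.07 in the controls against 11.56 and 11.26 in treated cells (log2 fold change 0.34, standard error 0.14, adjusted p 0.374). Its inhibitor GMNN was at 11.68 and 11.63 in the controls against 11.28 and 11.51 in treated cells (log2 fold change -0.26, standard error 0.13, adjusted p 0.432). The RNA signal of neither CDT1 nor GMNN overlapped between the groups, and neither gene passed. The FUCCI reporter of the study was read by fluorescence of cells, not as RNA. For the treatments, the share of all genes without overlap was not counted.

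Cyclin E genes were on the lower side in TT cells. CCNE1 was at 12.14 and 12.14 on the control arrays and 11.79 and 11.74 with antagomiR-375 (log2 fold change -0.37, standard error 0.11, adjusted p 0.314), and CCNE2 was at 10.11 and 9.95 in the controls against 9.65 and 9.80 in treated cells (log2 fold change -0.30, standard error 0.14, adjusted p 0.406). Both treated arrays lay below both controls for each cyclin. GINS1 was at 11.81 and 11.61 in the controls against 11.43 and 11.26 in treated cells (log2 fold change -0.36, standard error 0.11, adjusted p 0.316). Levels of E2F1 were 11.40 and 11.32 in the controls against 11.30 and 11.25 in treated cells (log2 fold change -0.083, standard error 0.11, adjusted p 0.722), and those of PCNA 13.12 and 13.10 in the controls against 13.05 and 13.16 in treated cells (log2 fold change -0.0041, standard error 0.11, adjusted p 0.988). The PCNA arrays of both groups overlapped, and its sign depended on the processing. The 95% intervals of the 45 genes reached from 0.333 to 0.76 on either side of the log2 fold change, with a median of 0.348.

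Both manipulations were set side by side, since they were directed at the same miRNA in opposite ways. For TYMS the log2 fold change was -1.44 with pre-miR-375 and -0.13 with antagomiR-375, for UHRF1 -1.35 and 0.02 (the latter of either sign across the alternatives), for CDC6 -1.07 and 0.40, and for CCNE2 0.90 and -0.30. The difference of the effects was tested in 1 fit of all 8 arrays with the slide as a block, and no gene of the array passed it (0% of 23292 genes, smallest adjusted p 0.0625, 7761 probes at an unadjusted p under 0.05). The nearest among the 45 were TYMS (difference -1.31, standard error 0.14, adjusted p 0.0627), CCNE2 (1.20, standard error 0.18, adjusted p 0.0713) and UHRF1 (-1.37, standard error 0.23, adjusted p 0.0819). CDC6 had the largest difference, -1.47, with an adjusted p of 0.108. At an unadjusted p under 0.05 the difference was negative for 9 of the 45 genes and positive for 2, against 12.2% and 12.8% of all genes. GINS4 (-0.90) and MCM10 (-0.88) were among the 9, with adjusted p of 0.124 and 0.111. In signs alone, 14 of the 45 genes were negative with the mimic and positive with the antagomiR, and 12 were the reverse. Another 14 were negative in both lines and 5 positive in both. These sign counts were not taken over all genes and only describe the 45.

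Most of these genes differed between the control cells of the lines. In TT control cells 32 of the 45 genes had a lower signal than in Nthy-ori 3-1 control cells and 2 a higher one at an adjusted p of at most 0.05, against 22.5% and 24% of all 22693 genes tested. The median log2 difference of the 45 was -1.05, and that of all genes was 0.012. Both TT controls were below both Nthy-ori 3-1 controls for 39 genes and above for 3, against 37.4% and 38.1% of all genes. Taking all 4 arrays of each line, TT arrays were all below the Nthy-ori 3-1 arrays for 34 genes (75.6%) and all above for 2 (4.44%), and the shares over the 23292 genes tested were 28.5% and 28.1%. The RNA integrity number was 8 on both TT control and 9 on both Nthy-ori 3-1 control arrays. Cell line, medium, slide, the concentration in the labels and RNA quality changed together between these groups, as may have the control reagent. They cannot be told apart. Without either TT control array, 4 of the 32 genes passed (CHAF1B, GINS3, GINS4 and UHRF1) and no gene was higher, with the spread then taken from the Nthy-ori 3-1 controls alone. The median of the 32 differences was -1.13 without TT control replicate 1 and -1.21 without replicate 2, against -1.11 with all 4 arrays. Their signs could not turn, because both TT controls lay below both Nthy-ori 3-1 controls for each of the 32.

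By role, 8 of 9 licensing genes were lower in TT control cells, 7 of 8 genes of origin firing and CMG, 5 of 6 of the clamp and loader, 6 of 9 of the polymerases and primase, 2 of 4 of nucleotide supply, 0 of 2 of Okazaki fragment maturation and all 4 of chromatin and histone supply. None of the 3 G1/S genes was lower and 1 was higher. The largest difference was that of GINS4, with 7.64 and 7.81 on the TT control and 11.04 and 10.98 on the Nthy-ori 3-1 control arrays, 9.75-fold lower in TT (log2 fold change -3.29, standard error 0.19, adjusted p 0.000517). GINS3 followed with 8.91 and 8.85 against 11.50 and 11.89 (log2 fold change -2.81, standard error 0.22, adjusted p 0.00122). Within the same complex GINS1 was lower as well (-1.09, adjusted p 0.0120), whereas GINS2 was higher in TT, at 12.35 and 12.49 against 11.73 and 11.72 (log2 fold change 0.69, standard error 0.19, adjusted p 0.0393). So 1 of the 4 GINS genes ran against the rest of the complex. GINS2 and CCNE1, the 2 genes higher in TT controls, no longer passed with any 1 array left out or with scaling to the 75th percentile.

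CHAF1B, a subunit of CAF-1, was at 9.46 and 9.48 in TT and 11.99 and 12.23 in Nthy-ori 3-1 controls (log2 fold change -2.64, standard error 0.20, adjusted p 0.00103), and UHRF1 was at 10.41 and 10.54 against 12.22 and 12.29 (log2 fold change -1.78, standard error 0.19, adjusted p 0.00266). POLE, the catalytic subunit of polymerase epsilon, was at 6.61 and 6.86 against 8.03 and 9.10 (log2 fold change -1.83, standard error 0.42, adjusted p 0.0249). RFC1, the large loader subunit, was at 8.69 and 8.99 against 10.26 and 11.02 (log2 fold change -1.80, standard error 0.33, adjusted p 0.0132). The 2 Nthy-ori 3-1 arrays of POLE and RFC1 lay far apart, but the groups did not overlap. In the MCM ring the log2 differences ran from -1.62 (MCM2, adjusted p 0.00821) to -0.30 (MCM4, adjusted p 0.325), and MCM4 alone of the 6 did not pass. CDT1 (11.07 ± 0.0012 against 12.26 ± 0.0082, mean ± SD, n = 2), GMNN (11.65 ± 0.037 against 13.06 ± 0.091) and PCNA (13.11 ± 0.02 against 14.16 ± 0.042) were each lower in TT controls, with log2 differences of -1.19, -1.40 and -1.05 and adjusted p of 0.00770, 0.00523 and 0.0112 in limma.

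**Figure D3:**
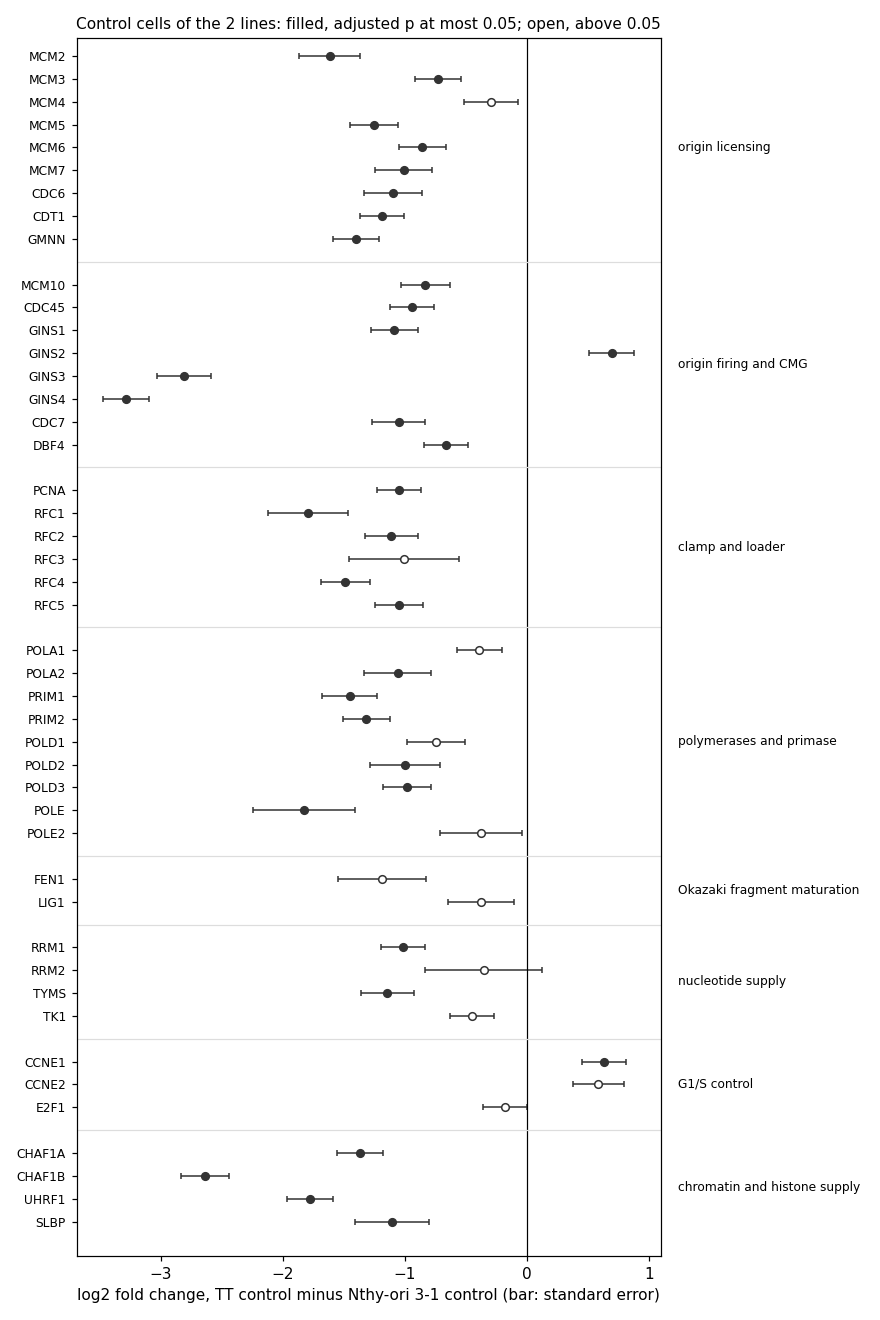
Log2 difference between TT and Nthy-ori 3-1 control cells for each of the 45 genes by role, with the standard error (filled, adjusted p at most 0.05; open, above). Points lie left of 0 for 42 genes, and GINS2, CCNE1 and CCNE2 lie right of it.

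Of the 3 G1/S genes, 1 passed, and 2 had a positive and 1 a negative value. CCNE1 was higher in TT controls, at 12.14 and 12.14 against 11.47 and 11.54 (log2 fold change 0.63, standard error 0.18, adjusted p 0.0469). CCNE2 was at 10.11 and 9.95 against 9.30 and 9.59 (log2 fold change 0.58, standard error 0.21, adjusted p 0.0856), and its other probe had a log2 difference of -0.85, so its direction is not settled. E2F1 was at 11.40 and 11.32 against 11.54 and 11.55 (log2 fold change -0.18, standard error 0.18, adjusted p 0.455, 95% interval -0.67 to 0.30). The 11 genes that passed in neither direction were FEN1, RFC3, POLD1, TK1, POLA1, LIG1, POLE2, RRM2, MCM4, E2F1 and CCNE2. Among these the TT values of RRM2, set against those of Nthy-ori 3-1, were 9.56 and 9.88 against 9.44 and 10.72, those of RFC3 8.26 and 8.43 against 8.74 and 9.96, and those of POLE2 8.62 and 8.84 against 8.70 and 9.51. The Nthy-ori 3-1 arrays of RRM2, RFC3 and POLE2 were wide apart. Of the promoter windows of genes that were lower in TT controls, 16 of 39 (41%) held an E2F form, and of the windows of the other genes 6 of 14 (42.9%).

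**Figure D4:**
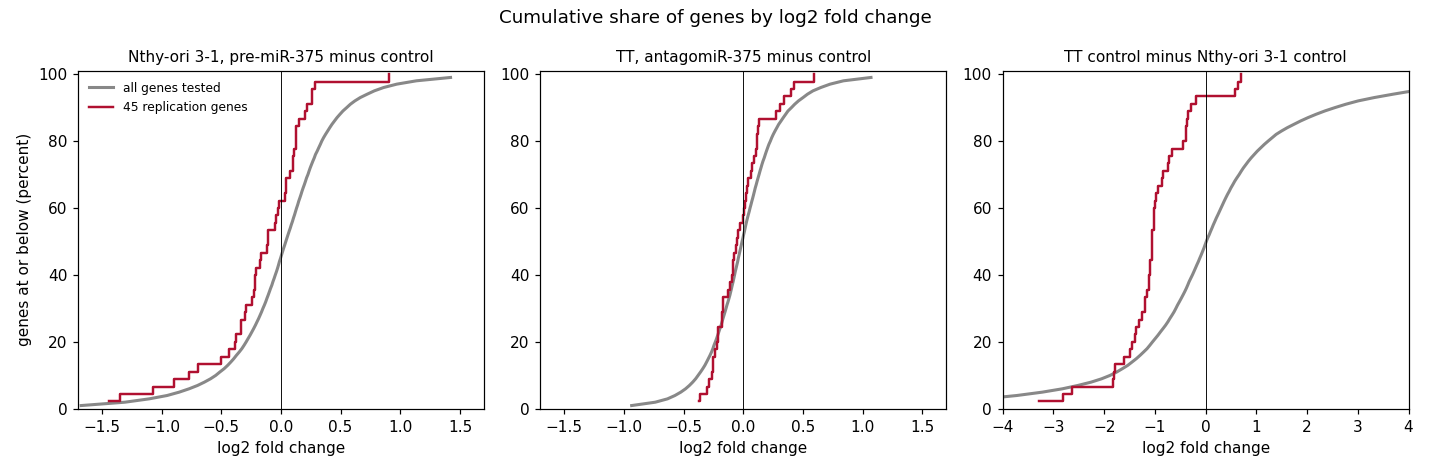
Cumulative share of genes (percent) against log2 fold change for the 45 replication genes (red) and all genes tested (grey) in the 3 comparisons. The red curve lies left of the grey one around its median in the control comparison (-1.05 against 0.012), less so with pre-miR-375 (-0.11 against 0.041), and close to it with antagomiR-375 (-0.056 against -0.010).

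Replicates of Nthy-ori 3-1 were further apart than those of TT cells. The median absolute difference between the replicates of a group, over the 45 genes, was 0.193 in the Nthy-ori 3-1 controls, 0.249 with pre-miR-375, 0.143 in the TT controls and 0.108 with antagomiR-375, and over all genes tested it was 0.354, 0.401, 0.19 and 0.161. A difference over 0.5 was seen for 9 of the 45 genes in the Nthy-ori 3-1 controls, and the same 9 had one with pre-miR-375, where 11 did. Over all 23292 genes tested it was seen for 8399 in the controls, 9754 with pre-miR-375 and 6032 in both, a larger share than among the 45. RRM2 was an example, at 9.44 and 10.72 in the controls and 9.54 and 11.14 with pre-miR-375, so that its replicates differed more than its groups did. In TT cells no gene of the 45 had such a difference in either group, against 4143 of all genes in the controls and 4305 with antagomiR-375. Of the 10 genes with more than 1 tested probe, 2 had probes of both signs with pre-miR-375 (DBF4 and PRIM2), 6 with antagomiR-375 (MCM7, PCNA, POLE, PRIM2, RFC3 and UHRF1) and 1 between the control cells (CCNE2).

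Other replication genes outside the 45, such as the origin recognition complex, RPA, checkpoint and accessory polymerase genes, numbered 42, of which 41 were tested with pre-miR-375. Of these, 2 fell and 0 rose, against 2.47% and 1.45% of all genes tested, with a median of 0.0018. They were DUT, the dUTPase that keeps uracil out of DNA, at 14.54 and 14.89 in the controls and 13.22 and 13.60 with pre-miR-375 (log2 fold change -1.31, standard error 0.11, adjusted p 0.0435), and EXO1, an exonuclease of mismatch repair, at 10.37 and 10.54 in the controls against 9.04 and 9.13 in treated cells (log2 fold change -1.37, standard error 0.12, adjusted p 0.0435). The treated arrays of both genes lay below their controls without overlap. Of the 42 genes, 0 were called in TT cells, and between the control cells 20 were lower in TT and 2 higher, POLD4 (1.05) and CHEK1 (0.88), with a median of -0.87. The shares over all genes were 22.5% lower and 24% higher. ORC1, the largest origin recognition subunit, was at 5.95 and 5.72 in TT and 8.44 and 8.95 in Nthy-ori 3-1 controls (log2 fold change -2.86, standard error 0.26, adjusted p 0.00180). RBL1, the pocket protein p107, had the largest difference of the list (-3.58, adjusted p 0.000879).

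Of 16 G1 regulators, 15 were tested with pre-miR-375, and 1 rose and 0 fell. Over all genes tested, 1.45% rose and 2.47% fell, so counts in lists this short say little. CDKN2D, the CDK4 and CDK6 inhibitor p19, was at 11.41 and 11.19 on the control arrays and 12.41 and 12.21 with pre-miR-375 (log2 fold change 1.01, standard error 0.11, adjusted p 0.0485). CDKN1A, the CDK inhibitor p21, was at 6.28 and 7.53 in the controls against 7.20 and 8.64 in treated cells, and its adjusted p of 0.0505 (log2 fold change 1.02) just missed the threshold. The CDKN1A arrays overlapped, and the signal was higher in both pairs. None of the 14 tested in TT cells passed. Between the control cells 7 of the 15 tested were lower in TT and 3 higher, against 22.5% and 24% of all genes. CDK6 was at 4.62 and 5.05 in TT and 11.75 and 12.18 in Nthy-ori 3-1 controls (log2 fold change -7.12, standard error 0.27, adjusted p 0.000207), and CDKN1C, the CDK inhibitor p57, was lower too (log2 fold change -6.12, standard error 0.30, adjusted p 0.000351). CDKN2D was higher in TT (2.63, adjusted p 0.00123), as were E2F5 (2.08) and CDKN1A (1.59). CDKN2C, the inhibitor p18, is counted among the 7 but was not well above background on any TT array, so it has only a bound there. Among 20 G2/M genes 2 fell with pre-miR-375: CENPF, a kinetochore protein, at 12.28 and 13.20 in the controls against 10.66 and 11.81 in treated cells (log2 fold change -1.51, standard error 0.13, adjusted p 0.0435), and BIRC5, survivin, at 14.86 and 15.01 in the controls against 13.82 and 14.06 in treated cells (log2 fold change -1.0, standard error 0.12, adjusted p 0.0496). In TT cells 0 of the 20 passed. Between the control cells 7 of the 20 were lower in TT and 0 higher, against 22.5% and 24% of all genes. Their median was -0.31, against -1.05 for the 45 replication genes.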

How the data were processed

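RNA of 8 cultures was labelled in 1 colour and hybridized to Agilent SurePrint G3 arrays, 2 per group. The authors deposited the Feature Extraction 10.10.1.1 output of each array, with intensity per spot not normalized between arrays, and 1 table of normalized log2 values, which was an alternative here. The submitters' processing notes name limma. The labels name polyA RNA and the methods total RNA.

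The log2 of the processed intensity, which is background subtracted, was taken without control and outlier spots (341 to 428 per array), repeated spots were averaged to 1 value a probe, and quantile normalization was run over all 8 arrays. In limma 3.58.1 (R 4.3.3) each line was fitted alone with the slide as a block, for probes well above background on both arrays of at least 1 group. TT control against Nthy-ori 3-1 control cells was fitted on 4 arrays without a block, and the difference of the effects on all 8 with it. P were adjusted over all probes. The replicate deviations of control and treated arrays on a slide correlated with r = 0.79 over 24186 probes in Nthy-ori 3-1 and 0.33 over 27239 in TT cells. Slide and replicate number are the same within a line, so slide and culture cannot be told apart. With 1 residual degree of freedom per line, p-values rest on the variance shared across probes (prior degrees of freedom 2.58 in Nthy-ori 3-1, 2.12 in TT), and without the filter that prior was 0.99 in Nthy-ori 3-1. The steps were tested on simulated data.

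Values on every array were given, in each comparison, for the 6 genes with the largest absolute log2 fold change among those called, filled up with the largest of one sign in both pairs, and for CDT1, GMNN, CCNE1, CCNE2, E2F1 and PCNA, and for up to 4 called genes of each other list. RRM2, RFC3 and POLE2 were added for the spread of their replicates and PRIM1 and CDKN1A after their values were seen. Members and lists were chosen with earlier results of these data known. A further marker is not reported here. Alternatives were the filter, normexp background correction with an offset of 50, scaling to the 75th percentile, normalization within a line, the deposited log2 values, no replicate block, both lines fitted together, any probe of a gene, an unadjusted p, and leaving out each replicate.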

Additional observations from a re-analysis of the deposited data

How the results depend on the processing

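With pre-miR-375 the main count was 3 lower and 0 higher. It was 5 and 1 with probes above background on every array, 9 and 1 with normexp, and 7 and 1 with the deposited values. It was 5 and 1 with both lines fitted together, and 10 and 1 at an unadjusted p under 0.05. Probes called over the whole array, in either direction, rose as well. They were 999 in the main setting and 2632 with probes above background on every array. Normexp gave 4828, the deposited values 4062 and both lines together 2994. At an unadjusted p under 0.05, 14.1% of all genes were lower and 15.6% higher. More of the 45 were thus called where more of the whole array was. Among the 45 the count was 0 lower without the filter, with normalization within each line (adjusted p 0.051 to 0.056 for TYMS, UHRF1 and CDC6), and with no replicate block. Without replicate 1 or 2 it ranged from 0 to 0, where the lone pair was assumed to vary like the TT pairs. TYMS, UHRF1 and CDC6 were kept with the strict filter, normexp, the 75th percentile and the deposited values, and TYMS and UHRF1 with both lines together. In TT cells the unadjusted p gave 2 lower and 2 higher, and the other alternatives gave 0. Between the control cells, leaving out 1 array gave 4 to 34 genes lower and 0 to 0 higher (main 32 and 2), and the 75th percentile gave 0 higher. No paired analysis was possible because the lines shared no slide. For the difference of the effects (main 0 and 0), the counts lower and higher were 4 and 1 with the strict filter and 6 and 1 with normexp. They were 5 and 1 with the deposited values, and 9 and 2 at an unadjusted p. At that unadjusted p, 12.2% of all genes were lower and 12.8% higher, and shares for the other settings are not given here. The median with pre-miR-375 was -0.18 with the 75th percentile (-0.11 in the main setting), and the median in TT cells was -0.096 with the deposited values and between -0.068 and -0.022 without replicate 1 or 2 (-0.056 in the main setting). The sign turned under at least 1 alternative for 10 of the 45 genes with pre-miR-375, 16 in TT cells, 2 between the control cells (POLE2 and RRM2) and 8 in the difference of the effects, none of which had passed the test. Among the genes given on every array by rule these were GMNN with pre-miR-375 (-0.036 with the 75th percentile), PCNA in TT cells (0.047 with normexp, 0.017 with the deposited values, 0.064 and -0.072 without replicate 1 or 2, against -0.0041) and CDT1 in the difference of the effects (-0.20 to 0.098 without a TT replicate). Unless a value above says so, the cause was not tested. The probes of all 45 genes were well above background on every array, and 2 arrays per group limit the precision. The deposited values and normalization within each line were not used between the lines, which they scale separately.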
